A study of Caenorhabditis elegans with 6 samples.

Results

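The mitochondrial genome of C. elegans is a small circular chromosome, called MtDNA in the WBcel235 assembly, and its genes were looked up in RNA-seq of sorted touch receptor neurons. The members are all gene identifiers in the count files that lie on MtDNA in the annotation, 36 of 46726, made up of 12 protein genes, 2 ribosomal RNA (rRNA) genes and 22 transfer RNA (tRNA) genes. The study asked which splicing events depend on the RNA binding protein MEC-8, which counts per gene cannot show. It sequenced 3 libraries of wild-type animals, whose strain the labels give as N2, and 3 of animals carrying the mec-8(e398) allele. All were at the L4 larval stage. According to its methods both genotypes carried the zdIs5 mec-4p::GFP transgene, which is driven by a promoter of the touch neurons, and GFP-positive cells were sorted for polyA-selected sequencing. All 36 genes were listed at 0 counts in all 6 libraries, that is 216 of 216 values, so their expression was not measured in these files and no comparison of genotypes could be made for them.

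Mitochondria make ATP with the respiratory chain, whose complexes I, III and IV pump protons across the inner membrane while complex V, the ATP synthase, uses the gradient. Most subunits are encoded in the nucleus and imported, but a core set is encoded in the mitochondrial genome and translated inside the organelle by its own ribosome. The mitochondrial mRNAs of animals carry short poly(A) tails, so they are commonly among the abundant RNAs of polyA-selected libraries. A neuron needs this ATP for its ion pumps and for transport along the axon.

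Positions on MtDNA are those of WBcel235, and all 36 genes lie on the plus strand. Complex I, which takes electrons from NADH, has 7 of the 12 protein genes. They are ND6 (WBGene00010957) at MtDNA:113-549, ND4L (WBGene00010958) at MtDNA:549-783, ND1 (WBGene00010959) at MtDNA:1763-2635, ND2 (WBGene00010961) at MtDNA:3389-4269, ND4 (WBGene00010963) at MtDNA:6506-7808, ND3 (WBGene00010966) at MtDNA:11356-11691 and ND5 (WBGene00010967) at MtDNA:11691-13272. Each of the 7 was listed at 0 counts in wild-type replicates 1, 2 and 3 and in mec-8 replicates 1, 2 and 3. Complex III has CYTB (WBGene00000829), the cytochrome b subunit, at MtDNA:4504-5621, which was listed at 0 counts in each of the 6 libraries. Complex IV, the cytochrome c oxidase that passes electrons to oxygen, has its catalytic subunit COX1 (WBGene00010964) at MtDNA:7827-9428, COX2 (WBGene00010965) at MtDNA:9649-10348 and COX3 (WBGene00010962) at MtDNA:5678-6449. COX1, with 1602 bases the longest of the 36 genes, was listed at 0 counts in each library, as were COX2 and COX3. Complex V has ATP6 (WBGene00010960), a subunit of the proton channel, at MtDNA:2634-3235, also at 0 counts in each library.

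The RNA parts of the mitochondrial translation machinery were at 0 as well. The shorter rRNA gene (WBGene00014454), of 696 bases at MtDNA:898-1593, and the longer one (WBGene00014472), of 952 bases at MtDNA:10403-11354, had 0 counts in each of the 6 libraries. The 22 tRNA genes, of 52 to 62 bases, lie between the other genes, the first at MtDNA:1-55 and the last at MtDNA:13275-13327, and all 22 were at 0 in every library. There was therefore no highest or lowest tRNA gene to name. Since no value was above 0, wild-type and mec-8 libraries could not be compared for these genes.

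The depth of the libraries sets what a count of 0 can mean. Reads counted on genes numbered between 15334872 and 33094142 per library, and a gene with 3 counts, the upper limit that a count of 0 allows, would have stood at 0.0907 to 0.196 CPM, the counts scaled to a common total of gene counts. This limit covers counting error only and applies to reads assigned to the genes, not to the RNA in the cells. In sorted populations fewer cells of a type and less RNA per cell cannot be told apart in any case. Genes with counts above 0 numbered 13613 to 19659 per library.

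The 0s of MtDNA were set against other genes of the same kind. Of 19605 nuclear protein genes, 1209 (6.17%) were at 0 in all 6 libraries, against 12 of 12 on MtDNA. By chromosome this share ran from 2.36% on chromosome III to 11.6% on chromosome V, and MtDNA was the single chromosome in the annotation on which every protein gene was at 0. The longest run of neighbouring protein genes at 0 in all libraries held 20 genes on chromosome V, and 7 or fewer on chromosomes I, II, III, IV and X, beside the 12 of MtDNA. For tRNA genes the contrast was smaller, because 550 of 612 nuclear tRNA genes (89.9%) were also at 0 in all libraries. Of 20 nuclear rRNA genes 13 were at 0 in all libraries, but rRNA as such was not lacking: rrn-3.1, a gene for the large rRNA of the cytosolic ribosome, was counted 1816516, 143954 and 798145 times in the wild-type libraries and 96005, 341193 and 275699 times in the mec-8 libraries, each in the order of replicates 1 to 3. The same order is used for all values below. These are counts of 1 repeated gene, and its reads may also fall on near-identical copies.

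**Figure D1:**
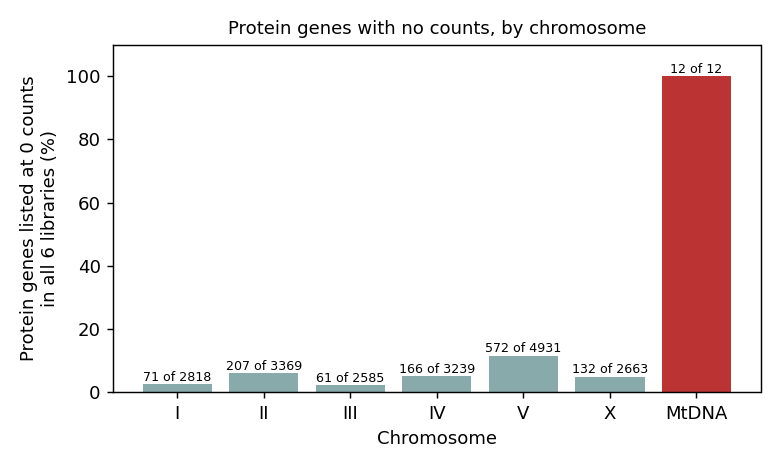
Bars give the share (%) of annotated protein genes on each chromosome that were listed at 0 counts in all 6 libraries, with the number of such genes of all protein genes above each bar. MtDNA stands at 12 of 12, and the nuclear chromosomes between 2.36% and 11.6%.

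Some places where mitochondrial reads could sit in these files can be given as totals. Reads that mapped to 1 place but on no gene made up 3.57% of the uniquely mapped reads in wild-type replicate 1, 1.44% in mec-8 replicate 1 and 0.385% to 0.688% in the other 4 libraries. Reads on more than 1 gene made up 11.08% in wild-type replicate 1 and 2.62% to 3.04% in the others. On MtDNA only 42 of 13265 gene bases belong to 2 genes, in 8 overlapping pairs such as ND1 with ATP6 and COX1 with a tRNA gene, although neighbouring genes are at most 18 bases apart and a read pair can span both. Alignments to several places numbered 70024247 in wild-type replicate 1 and 1922629 to 11988379 in the others. These lines carry no positions, and whether any of these reads came from MtDNA was not tested.

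Genes of the nuclear genome that build the same complexes were counted throughout. Of 69 nuclear genes listed for complexes I to V, cytochrome c included, 69 had counts above 0 in every library, while the 12 mitochondrial genes for complexes I, III, IV and V had none. The lowest value among the 69 was 12 counts. It was that of the complex I gene ndua-2 in mec-8 replicate 3 and of the complex III gene R07E4.3 in wild-type replicate 3. The highest was 213642 counts, of atp-1 in mec-8 replicate 2. Complex II, which has no gene on MtDNA, is in this list with 5 genes. Per kilobase of exon, the mean CPM over the 6 libraries ran from 12.7 (ndua-2) to 1108 (nuo-3) over 29 complex I genes, from 21.7 (R07E4.3) to 699 (cyc-2.1) over 13 genes of complex III and cytochrome c, from 78.5 (cox-6C) to 208 (cox-6B) over 7 complex IV genes and from 23.9 (hpo-18) to 3351 (atp-1) over 15 complex V genes.

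**Figure D2:**
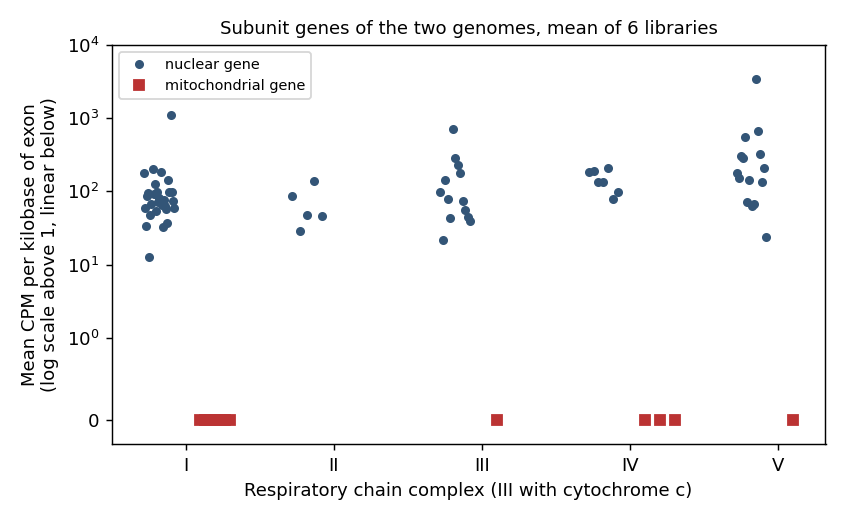
Points give the mean CPM per kilobase of exon over the 6 libraries for each nuclear subunit gene (circles) and each mitochondrial subunit gene (squares) of complexes I to V, on an axis that is logarithmic above 1 and linear below. The nuclear genes lie between 12.7 and 3351, and the 12 mitochondrial genes lie at 0.

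Within each complex the nuclear gene with the highest mean CPM, a measure that does not correct for length, was set beside its mitochondrial partners. For complex I this was nuo-3, an accessory subunit, counted 27783, 52859 and 17003 times in the wild-type libraries and 12473, 46119 and 24052 times in the mec-8 libraries, beside 7 mitochondrial genes at 0. Another protein gene overlaps nuo-3 in the annotation, so part of its reads could have been set aside, and 1 gene that is not protein-coding overlaps atp-1. For complex IV it was cox-4, counted 5421, 4613 and 726 times in the wild-type libraries and 2613, 6380 and 5035 times in the mec-8 libraries, beside COX1, COX2 and COX3 at 0. The genotypes overlapped for both genes, nuo-3 and cox-4. For complex V it was atp-1, the alpha subunit of the ATP synthase, counted 104602, 213229 and 193481 times in the wild-type libraries and 149491, 213642 and 101565 times in the mec-8 libraries, beside ATP6 at 0. For complex III with cytochrome c it was cyc-2.1, a cytochrome c gene, counted 7681, 21217 and 2943 times in the wild-type libraries and 4738, 12002 and 10853 times in the mec-8 libraries, beside CYTB at 0. Cytochrome c carries electrons from complex III to complex IV. The mitochondrial subunits of both complexes were listed at 0, like every other gene of MtDNA. For complex II it was sdhb-1, the iron-sulfur subunit of succinate dehydrogenase, counted 4182, 4870 and 1723 times in the wild-type libraries and 5991, 4340 and 1765 times in the mec-8 libraries.

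The proteins that copy, transcribe and translate the mitochondrial genome are also nuclear-encoded. The gene rpom-1, the mitochondrial RNA polymerase, was counted 372, 2888 and 1029 times in the wild-type libraries and 330, 2912 and 1874 times in the mec-8 libraries. It is the enzyme that transcribes MtDNA. Reads on rpom-1 itself were counted in each library, and the 36 genes of MtDNA were listed at 0. The gene hmg-5, related to the mammalian packaging factor TFAM, was counted 579, 507 and 258 times in the wild-type libraries and 218, 1105 and 551 times in the mec-8 libraries. The gene polg-1, the mitochondrial DNA polymerase, was counted 581, 431 and 271 times in the wild-type libraries and 107, 792 and 738 times in the mec-8 libraries, where the genotypes again overlapped. For twnk-1, the helicase of mitochondrial DNA, the wild-type libraries held 0, 158 and 12 counts and the mec-8 libraries 0, 91 and 0. Reads of twnk-1 are uncertain because 8 annotated genes overlap it, 4 of them on the other strand. Of the other 3 genes on this list, mtss-1, for the single-stranded DNA binding protein, ranged from 62 to 686 counts, tfbm-1, which 1 protein gene overlaps on the other strand, from 88 to 761 and mma-1 from 1488 to 3859. Of 69 mitochondrial ribosomal protein genes, 66 had counts above 0 in every library, and the other 3, mrpl-45, mrpl-46 and mrps-31, were at 0 in mec-8 replicate 3 alone. The one with the highest mean CPM, mrpl-44, which 1 other protein gene overlaps, was counted 3785, 3426 and 1303 times in the wild-type libraries and 2709, 4986 and 2671 times in the mec-8 libraries. The protein side of the mitochondrial ribosome was counted in each library, and both of its rRNAs stood at 0 there.

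Between genotypes, the test for the 36 mitochondrial genes was void, because none had a count and none entered the fit. Across the 14614 genes that edgeR's quasi-likelihood test could use, 0 (0%) had an adjusted p under 0.05 after Benjamini-Hochberg adjustment, with 470 (3.22%) at an unadjusted p under 0.05. DESeq2 gave an adjusted p to 15961 genes, of which 44 (0.276%) were under 0.05. The smallest Benjamini-Hochberg adjusted p over all genes in the edgeR test was 0.99998. With 3 libraries per genotype that differed widely, 0 genes passing, here and below, does not show that levels were unchanged. Of the 69 nuclear genes of complexes I to V, all were tested, and 0 passed in edgeR, 0 in DESeq2 and 0 at an unadjusted p under 0.05. In the edgeR fit 23 had a log2 fold change above 0 and 46 one below 0, with a median of -0.17 against 0.01 over all genes tested. The median was 0.41 without wild-type replicate 1, so its sign rested on that library. Of the 69 mitochondrial ribosomal protein genes, 0 passed in either tool, with a median log2 fold change of -0.34. Of the 7 genes for copying and transcription, 0 passed in either tool, with a median of -0.36, and of 8 genes for the mitochondrial stress response, which include the chaperone gene hsp-60, 0 passed in either tool, with a median of 0.10. In the same fit, 0 markers of intestine, body wall muscle, hypodermis, germ line or touch neurons had an adjusted p under 0.05. The log2 fold change was above 0 for 7 of 7 intestinal markers, with a median of 3.08 and 4 at an unadjusted p under 0.05. Summed, they took 0.0191% to 0.327% of the wild-type libraries and 0.203% to 1.83% of the mec-8 libraries. The largest part in each library was asp-1, with 2622, 376 and 99.6 CPM in wild type and 1351, 1739 and 15005 CPM in mec-8. The log2 fold change was below 0 for 7 of 8 body wall muscle markers, with a median of -1.55, and for 7 of 8 hypodermal markers, with a median of -1.63. The muscle list took 0.416% to 5.47% of the wild-type and 0.232% to 3.04% of the mec-8 libraries, with unc-120 at 0 in mec-8 replicate 3. Single genes weighed on its highest sums, with unc-15 at 26720 CPM in wild-type replicate 3 and unc-54 at 24877 CPM in mec-8 replicate 1. The hypodermal list took 0.0147% to 0.103% of the wild-type and 0.00487% to 0.0564% of the mec-8 libraries, with dpy-7 at 0 in wild-type replicate 1 and mec-8 replicate 3. Of 8 germ line markers, 3 had a log2 fold change above 0 and 5 one below 0, with a median of -0.35. Of 10 touch neuron markers, 5 lay above 0 and 5 below, with a median of -0.05. The ranges of the 2 genotypes overlapped for each of these lists. Their part in the medians of the mitochondrial lists was not tested.

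As shares of the gene counts, the nuclear genes of complexes I to V took 1.64%, 1.86% and 1.84% of the wild-type libraries and 0.966%, 1.805% and 1.53% of the mec-8 libraries. The MtDNA genes took 0% in each of the 6 libraries. A large part of the nuclear sum came from atp-1. This gene stood at 4516, 7647 and 12617 CPM in the wild-type libraries and 4517, 7067 and 4473 CPM in the mec-8 libraries. A sum without atp-1 was not tested, so the means, spread and order of libraries given next lean on this gene. The mean nuclear share of wild type was 1.78% ± 0.121 (SD, n = 3). That of mec-8 mutants was 1.44% ± 0.428 (SD, n = 3). Replicates 1 and 3 of mec-8 lay below the 3 wild-type libraries and replicate 2 lay between them, and the difference did not pass the test (exact two-sided permutation test, p = 0.2, and 0.9 after adjustment over 9 lists and sums, where 3 against 3 cannot go below 0.1).

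**Figure D3:**
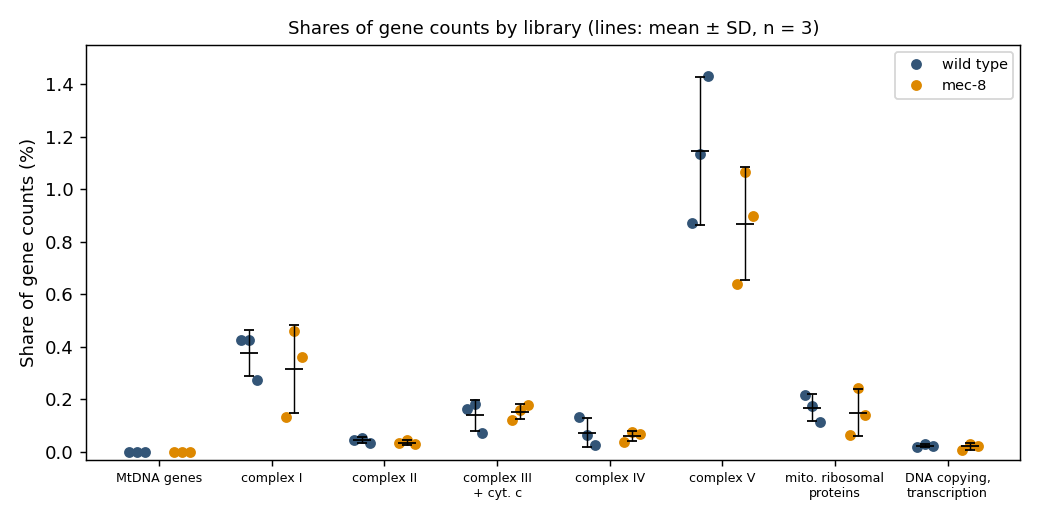
Points give the share of gene counts (%) taken in each library by the MtDNA genes, the nuclear genes of each respiratory chain complex, the mitochondrial ribosomal protein genes and the genes for copying and transcribing mitochondrial DNA, with wild type and mec-8 side by side and lines for the mean and SD of 3 libraries. The MtDNA genes lie at 0 in each library, and the genotypes overlap in each nuclear group.

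The libraries themselves differed widely within a genotype. Markers of the touch neurons, 10 genes such as mec-17 and mec-12, were above 0 in every library and took 0.103% to 1.47% of the gene counts. The body wall muscle markers, 8 genes, took 0.232% to 5.47%, 7 intestinal markers 0.0191% to 1.83%, 8 hypodermal markers 0.0049% to 0.103% and 8 germ line markers 0.119% to 0.714%, so reads on markers of other tissues were present in each library. The mutated gene mec-8 was counted 817, 241 and 143 times in the wild-type libraries and 775, 196 and 59 times in the mec-8 libraries, and a count per gene cannot show the mutation. The 36 mitochondrial genes were at 0 in every library, so their values could not be related to any marker list.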

How the data were processed

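RNA from GFP-positive cells of L4 animals was made into polyA-selected low-input libraries. Per the labels and the study's methods, the authors aligned read pairs to WBcel235 using STAR and counted reads per gene with HTSeq. The deposited values are raw counts per gene, without normalization, with closing lines for reads not assigned to 1 gene. Strand setting, overlap mode and annotation release are not given in the sources used here.

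The members and gene lists were chosen with earlier results of these data known. Members were the identifiers on MtDNA in release 115 of the WBcel235 annotation. All 36 matched the RefSeq table of the same assembly by position and gene type, which gave the protein gene names. Neither table names the amino acid of the tRNA genes. Of 46726 identifiers, 362 were not in this annotation and their chromosome was not looked up. No genome sequence was used, so no sequences are shown. Nuclear lists were written from known subunits, and 1 intestinal marker was not matched. Named were all mitochondrial protein and rRNA genes, the gene of highest mean CPM in each nuclear list, and all 7 genes for copying and transcription. The genes ndua-2, R07E4.3, cox-6C, cox-6B and hpo-18 (lowest or highest of their list), mrpl-45, mrpl-46 and mrps-31 (at 0 in 1 library), rrn-3.1 and the marker genes unc-120 and dpy-7 were named after their values were seen. So were the marker genes asp-1, unc-15 and unc-54.

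Genotypes were compared with edgeR 4.0.16 in R 4.3.3, using its quasi-likelihood test over all genes kept by filterByExpr, TMM factors and a Benjamini-Hochberg adjusted threshold of 0.05, and shares with exact permutation tests in scipy 1.17.1. The fits were tested on simulated data whose spread between libraries was set smaller than in these counts. That run does not show their power in these libraries. DESeq2 1.42.0, other normalizations and filters, a replicate block and leaving out each library were alternatives. The planned rRNA share of MtDNA counts, complex I share of MtDNA protein counts, ratio of MtDNA to nuclear counts and fold changes of MtDNA genes have no value when every count is 0, and were left out. Nothing says that replicates came from separate cultures beyond the study calling them biological, so p-values measure the spread between these libraries.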

Additional observations from a re-analysis of the deposited data

How the results depend on the processing

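The 36 mitochondrial genes had no count under any setting, so none of the alternatives gave them a test, and their share of the counts was 0% with gene counts, all uniquely mapped reads or gene counts without rRNA genes as the denominator, within same-numbered pairs and without each library in turn. A log2 scale of the share, and other settings for shares inside MtDNA, could not be run. Over all genes DESeq2 called 44 genes, and edgeR called 0 with each other normalization and filter, and 0 without each library in turn. For the nuclear genes of complexes I to V the number called was 0 under every alternative run, and their median log2 fold change ran from -0.48 to 0.41 when each library was dropped in turn. As in the main fit, 0 genes called does not show that their levels were unchanged. With the replicate number as a block 0 genes passed, and the median of the nuclear genes of complexes I to V was -0.03, against -0.17 in the main fit. Same-numbered libraries deviated from their genotype means with correlations of 0.06, 0.47 and -0.17 for replicates 1, 2 and 3. Of 6 libraries, 2 correlated best with their own number. The labels give these libraries no more than a shared number, and whether they were handled together was not tested. The counts do not say whether reads from MtDNA were ever assigned to genes, so the limit that a count of 0 allows applies to assigned reads alone.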
